A study of Mus musculus with 10 samples.

Results

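The cytosolic ribosomal protein genes were described in blood neutrophils of mice that carried a human kidney tumour. They were taken by name, as genes called Rpl or Rps with a number, or Rpsa, Rplp0, Rplp1 or Rplp2, leaving out pseudogene names and the Rps6 kinases. Of 89 names that matched, 75 had at least 1 RPKM (reads divided by gene model length and by the read total of the library) in at least 2 libraries, 44 of the large and 31 of the small ribosomal subunit. They are among 8039 genes that passed this filter, of 54146 in the table. The cells were sorted as CD11b+ Ly-6G+ from peripheral blood, and the mice, BALB/c nu/nu, lack a functional thymus. Blood was taken 14 days after kidney inoculation. Mice received 1 of the lines OS5K #1, OS5K #2 or OS5K #3, the line OSPa, or vehicle (sham), with 2 libraries in each of these 5 groups. OS-RC-2 was established from a human kidney cancer of the clear cell type. OSPa was read here as the parental OS-RC-2 line and the OS5K lines as derivatives of it. The labels say neither whether the replicates came from separate or pooled animals nor how old the mice were, so the p-values cover only the spread seen here between libraries, part of which may be technical.

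A eukaryotic ribosome has a small subunit, which reads the mRNA, and a large subunit, which joins the amino acids, and each holds its own set of proteins on a scaffold of ribosomal RNA. Mammalian ribosomal protein mRNAs start with a run of pyrimidines called a 5′ terminal oligopyrimidine (TOP) tract, through which mTOR signalling and the protein LARP1 regulate their translation as a class. Ribosome production declines as neutrophils mature in the bone marrow, and most ribosomal protein genes have left many processed pseudogenes in mammalian genomes.

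The start regions of 8 genes are shown to compare the letters around the first transcribed base, since not all of them hold a pyrimidine run at the start. They are RefSeq starts on GRCm38.p6, given on the gene's strand from 50 bases before to 30 bases after the first transcribed base. Capitals mark the longest run of C and T found within 10 bases before and 20 after the start. Rps9 and Rps27 were the most abundant of the genes, Rps6 is the substrate of the S6 kinases, and Rpl27a and Rpl15 hold long runs. Rps18 and Rpsa had some of the larger fold changes of OS5K over OSPa, though neither passed the test. Rps18 passed the filter only through OS5K libraries. Rps18 holds a run at the start. Rpsa holds only a short one downstream of it in the window searched, and a longer one, tcctttc, lies just beyond that window. Rps3, near the mRNA entry of the small subunit, has no run of at least 5 inside the window, although ctccc crosses its end.
Rps9, chr7:3703991-3704070, plus strand: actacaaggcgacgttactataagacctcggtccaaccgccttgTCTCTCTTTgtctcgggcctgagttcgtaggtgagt
Rps27, chr3:90213619-90213698, minus strand: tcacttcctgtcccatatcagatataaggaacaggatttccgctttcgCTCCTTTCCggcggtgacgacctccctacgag
Rps6, chr4:86857338-86857417, minus strand: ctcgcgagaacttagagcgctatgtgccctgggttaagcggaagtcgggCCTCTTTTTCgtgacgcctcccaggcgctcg
Rpl27a, chr7:109519145-109519224, plus strand: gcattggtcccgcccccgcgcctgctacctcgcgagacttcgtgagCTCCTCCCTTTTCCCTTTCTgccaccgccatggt
Rpl15, chr14:18270957-18271036, minus strand: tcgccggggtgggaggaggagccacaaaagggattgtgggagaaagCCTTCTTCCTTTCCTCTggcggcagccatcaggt
Rps18, chr17:33955636-33955715, minus strand: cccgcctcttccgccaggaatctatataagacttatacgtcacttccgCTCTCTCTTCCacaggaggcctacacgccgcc
Rpsa, chr9:120127716-120127795, plus strand: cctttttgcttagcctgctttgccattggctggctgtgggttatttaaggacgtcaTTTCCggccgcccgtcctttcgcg
Rps3, chr7:99483680-99483759, minus strand: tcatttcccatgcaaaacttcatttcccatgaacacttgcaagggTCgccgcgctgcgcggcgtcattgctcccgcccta

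A start was found for 57 of the 75 genes. Within 10 bases before and 20 after it, 38 of them (66.7%) held a run of at least 5 pyrimidines, against 46.4% of all 32851 mouse starts. A run of at least 8 was present in 20 (35.1%), against 11.2% of all starts. The median longest run was 6 bases for the ribosomal protein genes and 4 for all starts. The first transcribed base was C in 20 of the 57 (35.1%), against 16.3% of all starts. In the 300 bases around the start, the motif CCGGAAG, read on both strands, stood in 24 of the 57 (42.1%), against 8.86% of all starts, and TATAAA in 6 (10.5%), against 13.6%. On the other strand CCGGAAG reads CTTCCGG, whose pyrimidines can be part of a run. These matches describe letters in a window and were not compared with the expression values. The starts used in these cells were not measured, so the shares hold for the RefSeq starts only. The RefSeq start lay 1425 bases from the 5′ end of the listed gene for Rps10 and 3553 for Rps24, but 3 for Rps27 and 0 for Rplp0.

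Messages for ribosomal proteins were unequal in these cells. Mean levels over the 10 libraries ran from 0.666 to 208 RPKM, a span of 312-fold, with a median of 9.06 RPKM beside 5.11 for all tested genes. The level was over 20 RPKM for 13 genes, between 2 and 20 for 51 and under 2 for 11. The median was 8.67 RPKM for the large and 9.27 RPKM for the small subunit.

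Rps9, a small subunit protein needed for accurate decoding, had 208 RPKM on average and by itself held 18.4% of the summed RPKM of the 75 genes. Its gene (ENSMUSG00000006333) lies on mm10 chromosome 7 from 3703993 to 3706897. Its level was 204 and 188 RPKM in OS5K #1, 171 and 225 in OS5K #2, 233 and 202 in OS5K #3, 209 and 217 in OSPa, and 230 and 201 in sham. Both OS5K #1 libraries lay below both OSPa libraries, and every other pair of groups overlapped. Next came Rps27 with 87.7 RPKM, Rpl41, the smallest ribosomal protein, with 48.2, Rps29, a zinc-binding protein of the small subunit head, with 38.1, and Rps3a1 with 36.5. These 5 genes held 37.0% of the summed RPKM.

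The least abundant were Rpl36a at 0.666 RPKM, Rps18 at 0.698, Rpl24 at 0.712, Rpl10a at 0.873 and Rps15a at 1.15. Rpl24 rested on between 1 and 19 reads per library, Rpl36a on 5 to 30, Rps18 on 9 to 43 and Rpl10a on 10 to 56, so counting error is large for them. Rpl13, with a mean of 0.704 RPKM and 1.12 RPKM in its highest library, stood just outside the filter, while Rpl36a, Rps18 and Rpl24 stood just inside it. A further 5 names were above 0 with means under 0.5 RPKM, namely Rps12, Rpl21, Rpl12, Rpl29 and Rpl35a. The remaining 8 were listed at 0 in every library, among them Rpl10l and Rpl39l, paralogs known for their use in the testis, and 6 of these 8 are annotated as pseudogenes.

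**Figure D1:**
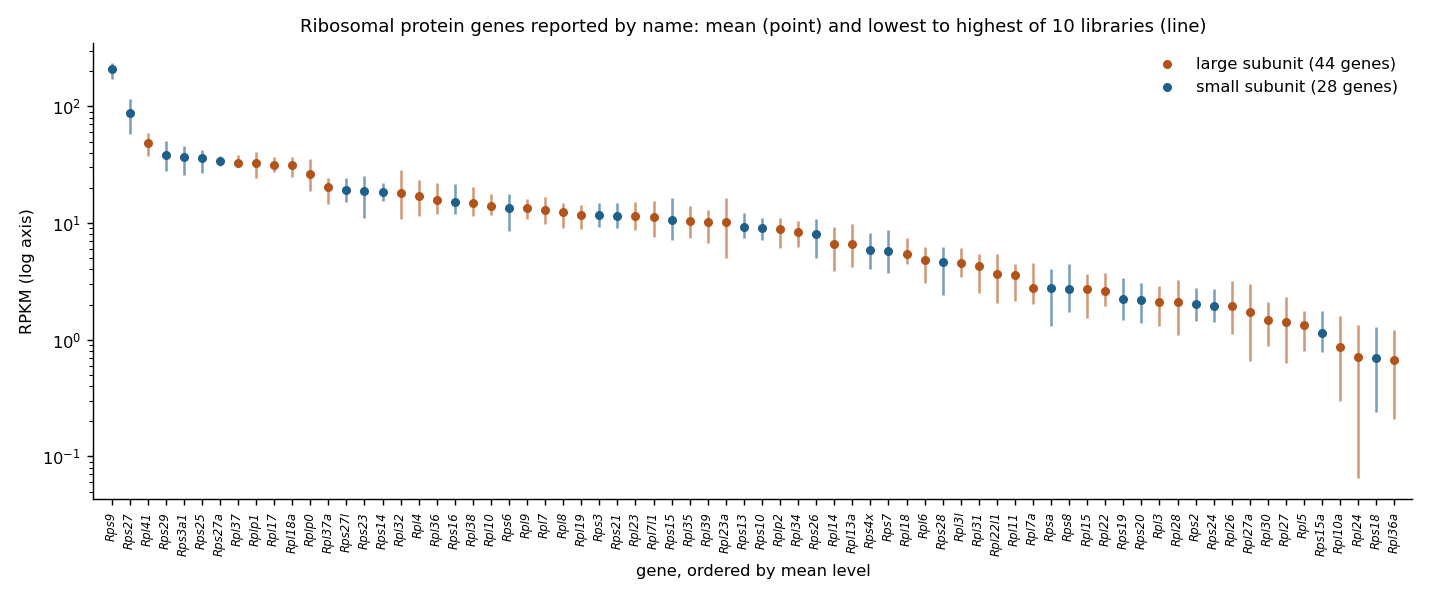
Mean RPKM over 10 libraries (points, log axis) and the range from the lowest to the highest library (lines) for the ribosomal protein genes reported by name, in order of level and coloured by subunit. Rps9 stands at 208 RPKM, 13 genes lie over 20 and 11 under 2, and genes of both subunits are spread along the order.

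Many of these genes have near-identical copies in the genome. The mRNA of each gene was cut into all its windows of 50 bases and compared with the transcripts of every other annotated gene. A median of 61.2% of a gene's windows occurred elsewhere, and 44 of the 75 genes shared at least 50%. Another gene was counted as sharing where it held at least 50 of these windows. Over the 83 protein-coding names, the median of the mean level was 2.80 RPKM for the 17 with at least 10 sharing genes, 6.23 for the 46 with 2 to 9 and 11.6 for the 20 with none or 1. The rank correlation of level with the number of sharing genes was -0.30, and with the percent of windows shared -0.14, across these 83 names (Spearman's rho, a description over genes that share libraries and base composition). Rpl7a, a large subunit protein, shared windows with 53 genes and had 2.80 RPKM, and Rps2, at the mRNA entry of the small subunit, shared with 45 and had 2.02. Rpl17 went the other way, with 31.5 RPKM and 19 sharing genes. Rpl3l shared no window with any gene.

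Pseudogenes that shared windows with the 75 genes numbered 423, and 408 of them (96.5%) were listed at 0 in every library. Their summed mean level was 12.8 RPKM, against 1132 RPKM for the 75 genes. The treatment of reads with several matches is not stated in the material used, which leaves the levels of genes with copies uncertain. Strand use is not given either, and gene models on the opposite strand overlap 66.2% of Rpl35 (Wdr38) and 59.7% of Rpl23a (Tlcd1). A model on the same strand, Gm28037, overlaps 47.0% of Rpl24.

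**Figure D2:**
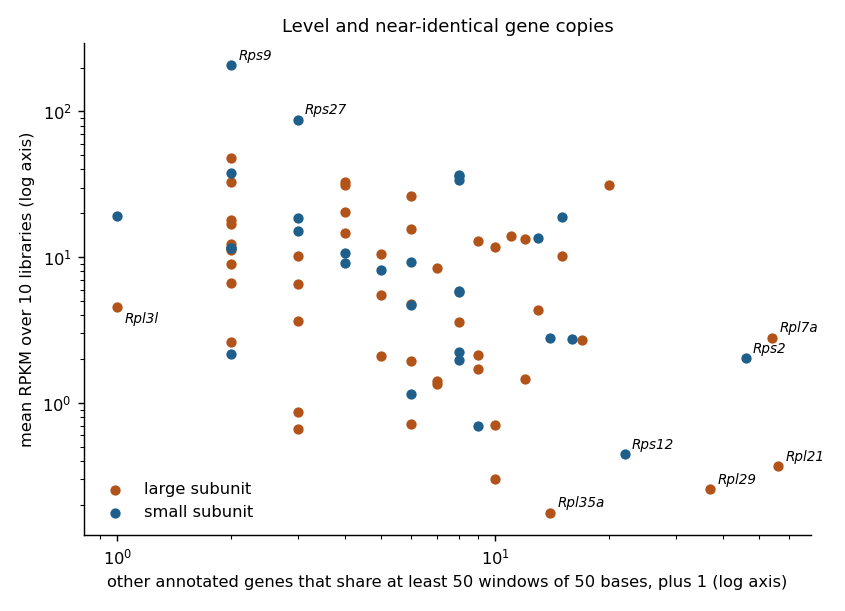
Mean RPKM over 10 libraries (log axis) against the number of other genes sharing at least 50 windows of 50 bases, plus 1 so that 0 can be drawn (log axis), for coding names above 0 that are reported by name. Names with at least 10 sharing genes lie at 31.5 RPKM or below, and Rpl3l has none.

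The genes tended to be high or low together in a library, and replicates of a group could lie far apart. Each gene's log2(RPKM + 1) was set against its mean over the 10 libraries, and the median of these deviations over the 75 genes was taken per library. It was 0.08 and -0.23 in OS5K #1, 0.01 and 0.11 in OS5K #2, 0.28 and 0.09 in OS5K #3, -0.08 and -0.30 in OSPa, and 0.20 and -0.11 in sham. Replicate 1 of OS5K #3 was the highest and replicate 2 of OSPa the lowest, and all groups but OS5K #3 had a replicate at or below 0.01. For all tested genes the same medians stayed between -0.11 and 0.08.

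OS5K #3 replicate 1 held the highest value of 31 of the 75 genes and the lowest of none. OSPa replicate 2 held the lowest value of 31 and OS5K #1 replicate 2 that of 21. Both had only 4 genes above the gene's own mean, against 72 in OS5K #3 replicate 1. As a share of all reads, the 75 genes took 0.211% and 0.169% in OS5K #1, 0.186% and 0.208% in OS5K #2, 0.241% and 0.206% in OS5K #3, 0.185% and 0.172% in OSPa, and 0.224% and 0.187% in sham. Within groups the SD of log2(RPKM + 1) had a median of 0.23 over these genes and 0.17 over all tested genes. The steadiest across libraries was Rps27a, whose product is a fusion of ubiquitin and a small subunit protein, with 31.0 to 37.7 RPKM over the 10 libraries. Rpl24 had the largest ratio of its highest to its lowest library, 20.7, with 1.34 and 0.0648 RPKM.

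**Figure D3:**
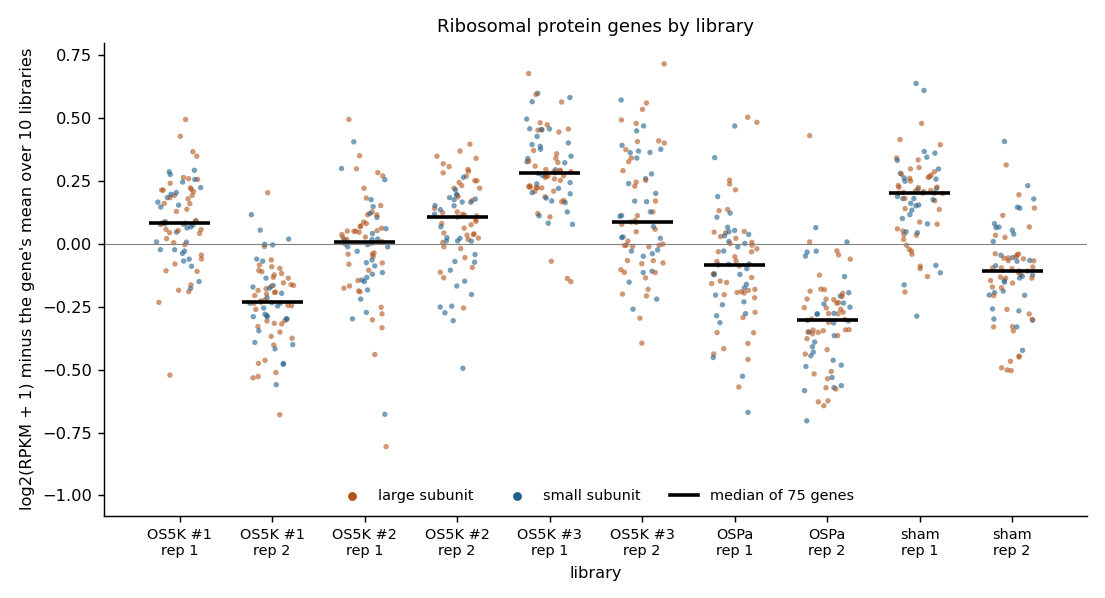
Deviation of log2(RPKM + 1) of each of 75 genes from its own mean over 10 libraries, by library, coloured by subunit, with the median as a bar. The medians run from 0.28 in OS5K #3 replicate 1 to -0.30 in OSPa replicate 2, and replicates of OS5K #1, OS5K #3, OSPa and sham lie apart.

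Total reads recovered from the values lay between 13765576 and 15514537 per library, a ratio of 1.13. The neutrophil transcripts S100a8 and S100a9 stood at 19794 to 32631 RPKM and 38018 to 46971 RPKM, and Ly6g and Itgam, which encode the sort markers, at 52.7 to 101 RPKM and 35.4 to 68.2 RPKM. Of 8 neutrophil precursor markers 2 were tested and Ctsg alone was at 0 in every library, and the list summed to 3.26 to 7.56 RPKM in OS5K, 5.09 to 6.42 in OSPa and 6.68 to 7.97 in sham libraries. Cd3e of T cells had at most 0.0178 RPKM, but the 15 T and NK cell markers, 6 of them tested, summed to 21.5 to 33.2 RPKM in OS5K, 21.5 to 25.4 in OSPa and 25.3 to 34.5 in sham libraries. Transcripts of B cells were present, and the list of 13 B cell markers, of which 12 were tested, summed to 58.5 to 148 RPKM in OS5K, 87.4 to 117 in OSPa and 105 to 186 in sham libraries. The 2 libraries with the lowest medians for ribosomal protein genes, OSPa replicate 2 and OS5K #1 replicate 2, were the 2 lowest in this sum and in that of the T and NK cell markers. The 2 with the highest medians, OS5K #3 replicate 1 and sham replicate 1, were the 2 highest in the B cell sum. In the T and NK cell sum sham replicate 1 was the highest, at 34.5 RPKM. There OS5K #3 replicate 1, at 27.5, lay below libraries such as OS5K #2 replicate 1, at 33.2, and OS5K #1 replicate 1, at 33.1. The part of these cells in the levels of ribosomal protein genes was not tested.

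The first comparison asked how neutrophils of mice with the derivative tumours differed from those with the parental one, using the mean of the 3 OS5K lines over OSPa. Most ribosomal protein genes had higher means in OS5K, by a small amount, and none passed the test. Of the 75 genes, 69 had a log2 fold change above 0 and 6 one below 0, with a median of 0.25, beside 0.02 over all tested genes. No member was called at a limma adjusted p under 0.05, where 0.348% of all genes were. At an unadjusted p under 0.05 there were 22 higher and 0 lower, beside 5.97% and 1.92% of all genes in those directions. All 6 OS5K libraries lay above both OSPa libraries for 15 genes and below them for 0, beside 5.45% and 2.9% of all genes. The median was 0.28 for the large and 0.22 for the small subunit. Bulk values cannot tell fewer cells of a type from less RNA per cell.

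Rpl32, a large subunit protein, had the largest fold change of the 75 genes. It stood at 17.9 and 15.2 RPKM in OS5K #1, 17.8 and 21.8 in OS5K #2 and 28.3 and 23.2 in OS5K #3, against 11.3 and 10.9 in OSPa. The OS5K libraries lay above OSPa throughout, with OS5K #3 the highest. The log2 fold change was 0.81 (SE 0.19, limma adjusted p = 0.163). Its gene (ENSMUSG00000057841) lies on mm10 chromosome 6 from 115805505 to 115808747.

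Rpsa, also known as the laminin receptor precursor, had 3.49 and 2.08 RPKM in OS5K #1, 3.16 and 3.09 in OS5K #2 and 4.05 and 3.35 in OS5K #3, against 1.31 and 1.70 in OSPa. The lowest OS5K library, replicate 2 of OS5K #1, was still above OSPa. The log2 fold change was 0.73 (SE 0.20, limma adjusted p = 0.231). Rps18, of the small subunit head, had 0.762, 0.670, 0.693, 1.01, 0.926 and 1.28 RPKM in the OS5K libraries in the same order, against 0.346 and 0.241 in OSPa, a log2 fold change of 0.54 with SE 0.13 (limma adjusted p = 0.191). Rpl24, a large subunit protein mutated in the Belly spot and tail mouse, averaged 0.944 ± 0.348 RPKM in OS5K (SD, n = 6) and 0.346 ± 0.398 in OSPa (SD, n = 2), a log2 fold change of 0.54 with an SE of 0.24. Its libraries overlapped and its reads were few. Rps18 and Rpl24 reached 1 RPKM only in OS5K libraries. The filter thus kept both through the group where they were high, which favours this direction for them.

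The 3 proteins of the large subunit stalk, which brings elongation factors to the ribosome, all had higher means in OS5K. Rplp0, the base of the stalk, had 35.4 and 24.1 RPKM in OS5K #1, 24.1 and 27.9 in OS5K #2 and 31.6 and 25.9 in OS5K #3, against 18.7 and 21.7 in OSPa. No OS5K library was as low as OSPa, although the OS5K #1 replicates stood far apart, and the log2 fold change was 0.45 (SE 0.16, limma adjusted p = 0.438). For Rplp1 the means were 35.1 ± 3.54 RPKM in OS5K (SD, n = 6) and 24.5 ± 0.485 in OSPa (SD, n = 2), a log2 fold change of 0.49. For Rplp2 they were 9.32 ± 1.81 in OS5K and 7.18 ± 0.634 in OSPa, with a log2 fold change of 0.32, and the groups overlapped.

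**Figure D4:**
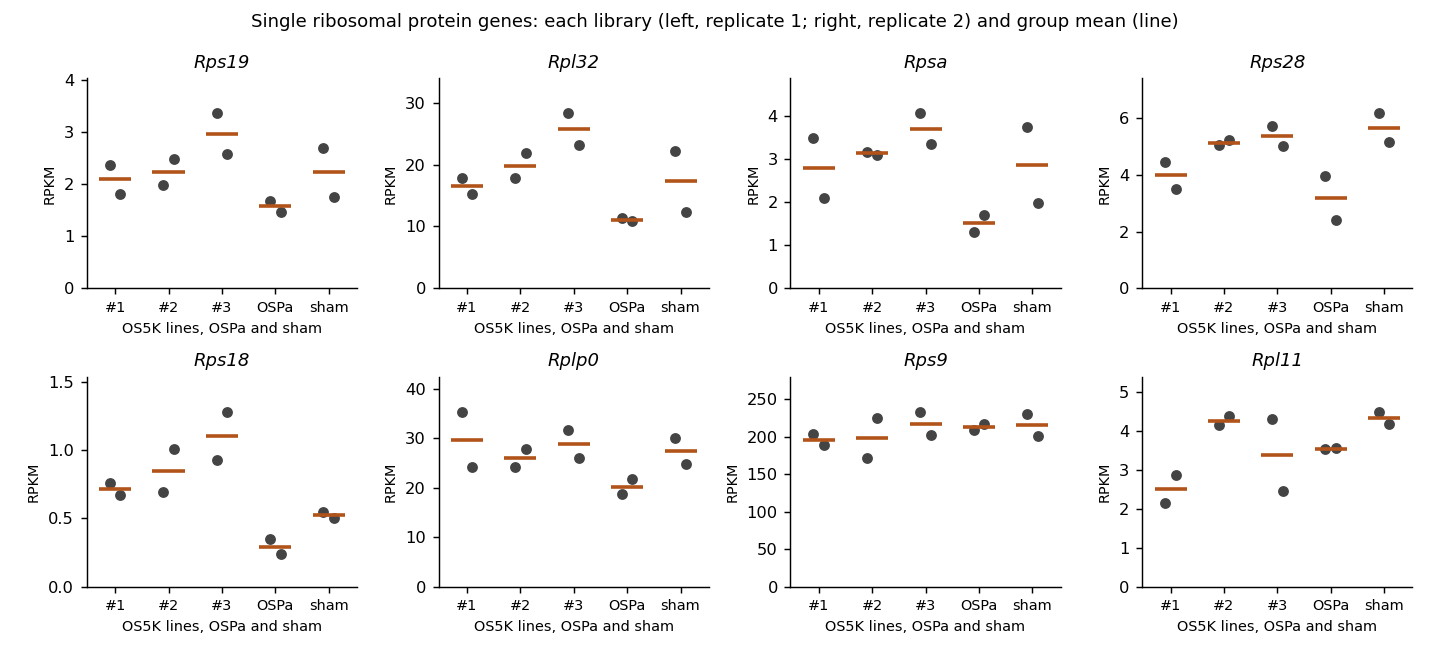
RPKM of 8 ribosomal protein genes in each library of OS5K #1, #2 and #3, OSPa and sham (points) with the group mean (line), on linear axes from 0. For Rps19, Rpl32, Rpsa, Rps18 and Rplp0 every OS5K library lies above both OSPa libraries, while for Rps28, Rps9 and Rpl11 the OS5K libraries overlap OSPa. Rps18 passed the filter only through OS5K libraries.

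The other end of the list was close to 0. Rpl36a, an X-linked large subunit protein, had the lowest log2 fold change, -0.24 (SE 0.23), with 0.601 ± 0.308 RPKM in OS5K and 0.887 ± 0.456 in OSPa. Then came Rpl28 at -0.10, Rpl11 at -0.09, Rps9 at -0.07 and Rpl27 at -0.05, all of them smaller than their SE. Rpl11 and Rpl5 bind Mdm2 together with 5S ribosomal RNA. Rpl11 had 2.16 and 2.86 RPKM in OS5K #1, 4.15 and 4.40 in OS5K #2, 4.32 and 2.45 in OS5K #3, and 3.54 and 3.56 in OSPa. Its OS5K libraries lay on both sides of OSPa. Rpl5 averaged 1.39 ± 0.323 RPKM in OS5K and 1.21 ± 0.101 in OSPa, a log2 fold change of 0.10 (SE 0.15).

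Genes known for a role of their own lay between these ends. Rps6 averaged 14.5 ± 2.56 RPKM in OS5K (SD, n = 6) and 10.7 ± 3.15 in OSPa (SD, n = 2), a log2 fold change of 0.41 with an SE of 0.22. Rps19, mutated in human Diamond-Blackfan anaemia, averaged 2.43 ± 0.542 in OS5K and 1.58 ± 0.155 in OSPa, and all OS5K libraries were above OSPa. Its log2 fold change was 0.40 (SE 0.15, limma adjusted p = 0.507). Rps14, lost in the human 5q deletion syndrome, averaged 19.0 ± 2.53 in OS5K and 16.0 ± 0.162 in OSPa, a log2 fold change of 0.22. Rps4x, whose human counterpart has a partner on the Y chromosome, had a log2 fold change of 0.41, Rpl39, at the peptide exit tunnel, 0.32, Rpl41 0.31, Rps27 0.30, Rpl13a, known from interferon-gamma dependent translational silencing in human monocytes, 0.28, and Rpl10, one of the last proteins to join the large subunit, 0.22. Rpl38, needed for translation of Hox mRNAs in mouse embryos, stood at 0.06 and Rps27a at 0.11.

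Paralogs were set beside their partners. Rpl3, near the peptidyl transferase centre, averaged 2.27 ± 0.473 RPKM in OS5K and 1.51 ± 0.294 in OSPa, and Rpl3l, its striated muscle paralog, 4.82 ± 1.08 in OS5K and 3.50 ± 0.0633 in OSPa. Their log2 fold changes were 0.37 and 0.35 (SE 0.12 for both, limma adjusted p = 0.354 and 0.376), and in both every OS5K library was above OSPa. Rpl22, needed for alpha-beta T cell development in mice, and its paralog Rpl22l1 had log2 fold changes of 0.13 and 0.24, with overlapping libraries. Rps27l, a p53 target in human cells, stood at 19.5 ± 3.52 RPKM in OS5K and 18.3 ± 4.61 in OSPa.

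The fold changes depended on both OSPa libraries and on the scaling. The median over the 75 genes was 0.17 without OSPa replicate 2 and 0.35 without OSPa replicate 1. Scaling to TPM moved the median of all tested genes to -0.16 and that of the ribosomal protein genes to 0.12, with 51 higher and 24 lower, so that the gap between both medians was 0.27 in TPM and 0.23 in RPKM. In the same comparison 12 of 13 tested erythroid markers were higher, with a median log2 fold change of 1.52 and list sums of 45009 to 121870 RPKM in OS5K and 20846 to 27965 in OSPa, and 11 of 11 monocyte markers were higher, with a median of 0.46. Platelet markers were higher for 11 of 11, with a median of 0.75, T and NK cell markers for 5 of 6, with a median of 0.31, and eosinophil markers for 2 of 3, with a median of 0.25. Among B cell markers 5 of 12 were higher, with a median of -0.03, and among neutrophil precursor markers 0 of 2. Of the secondary granule genes, which mark younger neutrophils, 4 of 10 were higher, with a median of -0.09. Neutrophil markers were higher for 5 of 10, with a median of 0.01. The part of these cells was not tested.

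The second comparison asked what the parental tumour did, using OSPa over sham, and shares the OSPa libraries with the first. Most ribosomal protein genes had lower means in OSPa, and none passed the test. A log2 fold change below 0 was found for 66 genes and one above 0 for 9, with a median of -0.24, beside -0.04 over all tested genes. No member was called with limma, where 0.0% of all genes were called. At an unadjusted p under 0.05 there were 9 lower and 0 higher, beside 4.27% and 1.7% of all genes. Both OSPa libraries lay below both sham libraries for 34 genes and above them for 0, beside 22.2% and 12.4% of all genes. The median was -0.22 for the large and -0.27 for the small subunit.

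Rps28, a small subunit protein, had the lowest fold change, with 3.97 and 2.41 RPKM in OSPa, against 6.17 and 5.15 in sham. Both OSPa libraries were below sham, and the log2 fold change was -0.69 (SE 0.19, limma adjusted p = 0.708).

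With 2 libraries a group, Rpsa averaged 1.51 ± 0.276 RPKM in OSPa and 2.85 ± 1.23 RPKM in sham (SD), at a log2 fold change of -0.59. Rpl32 averaged 11.1 ± 0.325 in OSPa and 17.3 ± 6.92 in sham, a log2 fold change of -0.54. For both the wide spread came from the sham replicates, 3.73 and 1.98 RPKM for Rpsa and 22.2 and 12.4 for Rpl32. The highest log2 fold changes were 0.24 for Rps2, 0.19 for Rpl36a, 0.17 for Rpl26, which binds p53 mRNA in human cells, 0.14 for Rpl6 and 0.09 for Rps16. Among the stalk genes, Rplp0 stood at -0.42, Rplp1 at -0.40 and Rplp2 at -0.37. Rpl3 was at -0.38, Rpl3l at -0.37, Rps27 at -0.41, Rps6 at -0.30 and Rps9 at -0.02.

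Each of the 4 libraries weighed on this result. The median was -0.09 without sham replicate 1, -0.38 without sham replicate 2, -0.35 without OSPa replicate 1 and -0.11 without OSPa replicate 2. B cell markers were lower in OSPa for 12 of 12 tested, with a median log2 fold change of -0.38, and monocyte markers for 10 of 11, with a median of -0.29. T and NK cell markers were lower for 4 of 6, with a median of -0.45, neutrophil precursor markers for 2 of 2, with a median of -0.29, and eosinophil markers for 2 of 3, with a median of -0.01. Secondary granule genes, listed as marks of younger neutrophils, went the other way, higher for 10 of 10 with a median of 0.26. Neutrophil markers were higher for 7 of 10, with a median of 0.14. Platelet markers were higher for 11 of 11, with a median of 0.43. Erythroid markers were lower for 11 of 13, with sums of 20846 to 27965 RPKM in OSPa and 52786 to 61261 in sham. The part of these cells was not tested.

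The third comparison set the mean of the OS5K lines over sham. Here the ribosomal protein genes as a group lay near 0. There were 41 genes with a log2 fold change above 0 and 34 with one below 0, with a median of 0.03, beside -0.02 over all tested genes. No member was called with limma, where 0.0% of all genes were called, and the smallest limma adjusted p of a member was 0.298. At an unadjusted p under 0.05 there were 3 higher and 0 lower, beside 5.49% and 4.94% of all genes. All OS5K libraries lay above both sham libraries for 2 genes and below them for 1, beside 6.66% and 5.17% of all genes.

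Rpl26 had 1.99 and 2.31 RPKM in OS5K #1, 1.91 and 1.70 in OS5K #2 and 2.33 and 3.17 in OS5K #3, against 1.52 and 1.11 in sham. Every OS5K library was above sham, and the log2 fold change was 0.47 (SE 0.14, limma adjusted p = 0.298). Rpl6, a large subunit protein, averaged 5.39 ± 0.792 RPKM in OS5K (SD, n = 6) and 3.71 ± 0.905 in sham (SD, n = 2), a log2 fold change of 0.44 with SE 0.13 (limma adjusted p = 0.300). Rpl4, which lines the peptide exit tunnel, averaged 19.0 ± 2.81 in OS5K and 14.3 ± 3.98 in sham, a log2 fold change of 0.40. Rpl24 stood at 0.48 and Rps18 at 0.30, both from few reads and both kept by the filter only through OS5K libraries.

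Among the lowest was Rps29, with 36.9 ± 5.09 RPKM in OS5K and 46.9 ± 4.46 in sham, a log2 fold change of -0.35 (SE 0.16). Rps15 followed at -0.33, Rpl11 at -0.32 and Rps23, at the decoding centre, at -0.25. Rplp0 stood at 0.03, with 28.2 ± 4.50 RPKM in OS5K and 27.4 ± 3.74 in sham. The sign of the median over the 75 genes was not stable. It was -0.14 without sham replicate 2 and 0.16 without sham replicate 1, and -0.06 in TPM, where the median of all tested genes was -0.11. In this comparison 2 of 12 B cell markers were higher, with a median of -0.41, and 2 of 6 T and NK cell markers, with a median of -0.26. Higher were also 6 of 11 monocyte (median 0.17), 13 of 13 erythroid (0.49) and 11 of 11 platelet markers (1.06). Eosinophil markers were higher for 2 of 3 (0.24), secondary granule genes for 6 of 10 (0.11) and neutrophil markers for 5 of 10 (0.05). Neutrophil precursor markers were higher for 0 of 2, with a median of -0.36. The part of these cells was not tested.

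**Figure D5:**
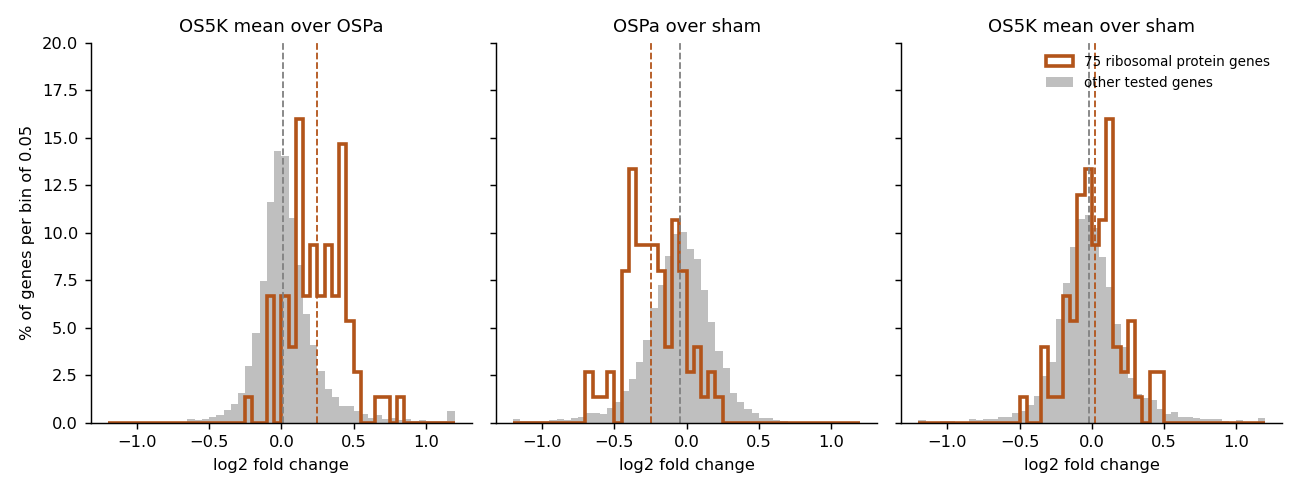
Log2 fold changes of 75 ribosomal protein genes (outline) and the other tested genes (grey) as percent of genes per bin of 0.05, in 3 comparisons, with medians as dashed lines and values beyond 1.2 drawn in the end bins. The outline has its median at 0.25 for OS5K over OSPa, -0.24 for OSPa over sham and 0.03 for OS5K over sham, and the first 2 panels share the OSPa libraries.

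The 3 lines were also set over OSPa one at a time, and these comparisons share the OSPa libraries. The log2 fold change was above 0 for 51 of the 75 genes in OS5K #1, 64 in OS5K #2 and 73 in OS5K #3. The medians were 0.14, 0.23 and 0.40 in that order, beside -0.07, 0.06 and 0.07 over all tested genes. In TPM the median for OS5K #1 was -0.13, beside -0.34 over all tested genes, so its direction turned with the scaling. No member was called in any line (limma), against 0.348%, 0.0% and 0.199% of all genes. At an unadjusted p under 0.05 there were 5, 12 and 29 higher and 0 lower, beside 3.01%, 5.24% and 8.23% of all genes higher and 3.11%, 1.36% and 1.64% lower.

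Among the genes of smallest p in OS5K #1 were Rplp0 and Rps3a1, with log2 fold changes of 0.52 and 0.42. In OS5K #2 they included Rpl3l, with 5.67 and 6.08 RPKM, against 3.54 and 3.45 in OSPa, a log2 fold change of 0.61 with SE 0.14 (limma adjusted p = 0.328), and then Rpl32 at 0.77. In OS5K #3 Rpl23, a large subunit protein, had 14.0 and 15.1 RPKM, against 9.86 and 8.78 in OSPa, a log2 fold change of 0.59 with SE 0.12 (limma adjusted p = 0.141). Rpl32 stood at 1.14 in this line (SE 0.24, limma adjusted p = 0.147).

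Differences among the 3 OS5K lines were tested with limma's F test, which called no member and 0.0% of all genes. An unadjusted p under 0.05 was found for 13 of the 75 genes, beside 6.66% of all genes. Among the 3 of smallest p were Rps23 and Rpl38 (limma adjusted p = 0.732 for both). Rps23 averaged 17.8 ± 2.69, 11.8 ± 1.14 and 24.8 ± 0.937 RPKM in OS5K #1, #2 and #3 (SD, n = 2 each), and Rpl38 13.2 ± 0.926, 11.8 ± 0.297 and 18.2 ± 3.25 in the same order. OS5K #3 had the highest mean of both genes.

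Other genes of the translation machinery were grouped by role. Ribosomal proteins outside the naming rule had 4 tested members, among them Fau, Rack1 and Rpl36al. Fau, which encodes the small subunit protein eS30 fused to a ubiquitin-like protein, was the second most abundant after Rps9 of all ribosomal protein genes described here. It had 138 and 115 RPKM in OS5K #1, 112 and 141 in OS5K #2, 149 and 130 in OS5K #3, 128 and 122 in OSPa, and 154 and 153 in sham. Rack1, a scaffold protein on the head of the small subunit, averaged 1.76 ± 0.435 RPKM in OS5K (SD, n = 6), against 1.19 ± 0.177 in OSPa (SD, n = 2), and 1.98 ± 0.965 in sham. Its log2 fold change was 0.32 for OS5K over OSPa (SE 0.18) and -0.41 for OSPa over sham. All 4 genes were higher in OS5K than in OSPa and lower in OSPa than in sham, with medians of 0.39 and -0.35.

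Translation elongation genes were higher in OS5K than in OSPa for 7 of 7 tested, with a median log2 fold change of 0.17, and lower in OSPa than in sham for 6 of 7, with a median of -0.23. Eef1a1, which brings aminoacyl-tRNA to the ribosome, averaged 76.6 ± 12.4 RPKM in OS5K, against 56.7 ± 1.07 in OSPa, and 66.8 ± 7.82 in sham. Genes other than ribosomal proteins with known TOP mRNAs were higher in OS5K than in OSPa for 13 of 14 tested, with a median of 0.23, and lower in OSPa than in sham for 12 of 14, with a median of -0.22. Among them Pabpc1, the poly(A) binding protein, averaged 19.7 ± 1.50 RPKM in OS5K, against 14.7 ± 0.652 in OSPa, and 16.5 ± 0.480 in sham, a log2 fold change of 0.40 for OS5K over OSPa (SE 0.10, limma adjusted p = 0.188). Most of the tested elongation genes, Eef1a1 among them, stand in this list too. Pabpc1 is also counted among the initiation factors, and a biogenesis gene is counted here as well. These lists thus partly count the same genes.

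Initiation factors were higher in OS5K than in OSPa for 26 of 35, with a median of 0.11, and lower in OSPa than in sham for 28 of 35, with a median of -0.14. Ribosome biogenesis genes gave 28 of 35 with a median of 0.10, and 29 of 35 with a median of -0.18. Nop56, a box C/D snoRNP protein, averaged 1.85 ± 0.351 RPKM in OS5K, against 1.10 ± 0.427 in OSPa, and 1.78 ± 0.468 in sham. Genes that control ribosome use, such as Mtor, Larp1 and the eIF2 kinases, were higher in OS5K than in OSPa for 11 of 16, with a median of 0.06, and lower in OSPa than in sham for 8 of 16, with a median of 0.01. No gene of these lists was called in these comparisons with limma. For OS5K over sham the medians were 0.04 for the proteins outside the rule, 0.11 for elongation, 0.08 for the TOP genes, -0.03 for initiation, -0.05 for biogenesis and 0.02 for control genes.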

How the data were processed

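Polyadenylated RNA of sorted neutrophils was amplified with SMART-Seq v4 and made into Ion Xpress Plus libraries, per the labels' protocols, which also speak of cultured cells. The authors deposited RPKM values per gene. Per the submitters' processing notes, the build is mm10. No aligner or counter is named in the sources used here. Identifiers of 99.9% of genes were found in GENCODE M21, 97.7% of them with the same start and end.

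Read totals were recovered from the RPKM steps: 88.3% to 88.7% of values were whole reads within 0.02, and 1 read in 1 kb was at most 0.0726 RPKM. Values were tested as log2(RPKM + 1), which understates fold changes of low genes, with limma 3.58.1 in R 4.3.3 (trend and robust, 5 group means, 5 residual degrees of freedom). P-values were adjusted by Benjamini-Hochberg over 8039 genes and called under 0.05. Each SD is over libraries and each SE that of a limma contrast. The design had planned a count test for counts and limma for normalized units. The fit was also run on simulated counts with known changes. These were drawn gene by gene, without the joint shifts of genes within a library seen here.

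The genes and lists were chosen with earlier results of these data known. Named were 22 genes with known roles, the 5 most and 5 least abundant, the 5 highest and 5 lowest fold changes per main comparison, 3 of smallest p per line, and up to 4 per other list. Not every gene these rules pick is reported here by name, but all count in the totals and medians. Rpl27a, Rpl15, Rps3, Rpl7a, Rpl17, Fau and Rack1 were picked after their values were seen. Tried as alternatives were TPM, median centring, quantile normalization, pseudocounts of 0.1 and 5, a minimum of 5 RPKM or none, no trend, only the groups compared, core members, a replicate block, and each library left out. Added later were limma-voom on the recovered reads and leaving out Rps9. Starts came from RefSeq (GRCm38.p6). Shared windows used the protein-coding transcript with the longest coding sequence.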

Additional observations from a re-analysis of the deposited data

How the results depend on the processing

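No ribosomal protein gene was called for OSPa over sham, OS5K over sham, OS5K #1 or OS5K #2 over OSPa, or among lines under any of 21 alternatives per comparison. For OS5K over OSPa, the fit of only the groups compared called 1 (Rpl32, limma adjusted p = 0.043), and leaving out 1 library called 0 to 1, which was Rpl32 without either sham replicate, with 1 other gene called without OS5K #1 replicate 2. For OS5K #3 over OSPa, only the groups compared called 2 (Rpl32 among them, limma adjusted p = 0.027), and leaving out 1 library called 0 to 1, Rpl32 without either sham replicate and 1 other gene without either OS5K #1 replicate. The cause was not tested. Over all alternatives the limma adjusted p of Rpl32 for OS5K over OSPa ran from 0.043 to 0.688.

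The median log2 fold change of the genes kept its sign in every alternative for OS5K over OSPa, at 0.12 to 0.35, and for OSPa over sham, at -0.38 to -0.09. For OS5K over sham it reversed to -0.063 in TPM, and leaving out 1 library gave -0.14 to 0.16, reversing without sham replicate 2 (-0.14), OS5K #1 replicate 1 (-0.027), OS5K #2 replicate 2 (-0.0041) and OS5K #3 replicate 1 (-0.0015). Limma-voom gave 0.31, -0.31 and 0.03 and called no member. Genes at 0 in every library could not be fitted without a filter. Same-numbered replicates did not deviate together across all groups: r between their deviations ran from -0.38 to 0.45 over 10 pairs of groups. Only 1 pair, OS5K #1 and OS5K #3, was over 0.1. Whether some libraries were paired or shared a batch cannot be told from these values. With the replicate block 0 members were called in every comparison (limma), while fold changes cannot move with the block, since every group has 1 library of each number.

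The precision is limited by 2 libraries a group and by replicates such as those of OS5K #1, with medians of 0.08 and -0.23, and for genes under 2 RPKM by few reads.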

Other observations

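Mitochondrial ribosomal protein genes, which serve the ribosomes inside mitochondria, were taken by name after the comparisons above had been made. They had log2 fold changes above 0 for OS5K over OSPa in 30 of 43 tested genes, with a median of 0.10, and below 0 for OSPa over sham in 34 of 43, with a median of -0.14. For OS5K over sham 16 of 43 were above 0, with a median of -0.04. No member was called in the 3 comparisons (limma).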
